A study of Mus musculus with 21 samples.

Results

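CD15 negative cells of mouse medulloblastomas were compared between 2 tumour models on 11 of the 21 arrays of the series, 5 titled math-1GFP and 6 titled conventional Patched. Arrays were chosen by the words CD15 negative in their titles, and the comparison was read across all 12367 genes tested. RNA of cells from the cerebellum was hybridised to a 1-colour mouse array. The labels give the source as primary tumour cells of Patched medulloblastomas. They name no genotype, strain, age, sex or treatment, and do not say whether each sample came from its own animal, whether animals were pooled, or whether GFP was used to sort the cells. The p-values below therefore rest on the variation from sample to sample, which may be of technical origin. The model cannot be told apart from the ending of the title, since every conventional title ends in le1 and every math-1GFP title in le2. The description field of all Math1-GFP samples also calls their tumours conventional, and the titles were followed here.

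Patched (Ptch1) is the receptor that holds the Hedgehog pathway off, by keeping Smoothened (Smo) silent until a Hedgehog ligand binds. When Patched is lost, the Gli transcription factors drive target genes and the proliferation of granule neuron precursors, the cells of the developing cerebellum from which this kind of medulloblastoma arises. Math1, now named Atoh1, is the transcription factor that marks those precursors, and a Math1-GFP reporter places the green fluorescent protein under control of its regulatory sequence. CD15 is a carbohydrate on the cell surface that was used to divide the tumour cells into a positive and a negative fraction.

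The groups differed on the arrays before any gene was tested. The mean signal per array was 256 to 291 in the conventional group and 224 to 255 in the Math1-GFP group (2-sided exact permutation test, p = 0.00217, the smallest the design allows; adjusted over 6 array measures, p = 0.00649). The ratio of the 3' to the 5' probe set of Pcx, pyruvate carboxylase, was 7.00 to 11.5 against 1.76 to 2.62 (exact permutation p = 0.00217, adjusted p = 0.00649). This ratio is a usual measure of how far labelled RNA reached towards the 5' end. The same ratio for Gapdh was 0.796 to 0.925 against 0.687 to 0.768 (exact permutation p = 0.00433, adjusted p = 0.00866), and for Actb 1.40 to 1.84 against 1.25 to 1.45 (exact permutation p = 0.0281, adjusted p = 0.0338). Its part in the gene results was not tested. Conventional arrays 1 and 6 (number 1 is given here to a title that has none) and Math1-GFP array 2 also lack the mark e1 that the other titles carry, and the labels do not say what it means. Conventional 1 and 6 correlated with the Math1-GFP arrays at r = 0.929 to 0.968 across genes, and with conventional 2 to 5 at 0.922 to 0.945. Results are therefore also given for these 2 arrays alone against the Math1-GFP group, and for the arrays with the mark only.

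The CD15 negative cells of the 2 models differed in 1972 of the 12367 genes (15.9%) in limma at a Benjamini-Hochberg adjusted p under 0.05. In the Math1-GFP group 842 genes were higher (6.81%) and 1130 were lower (9.14%). This excess of lower calls holds for the brightest probe set of each gene. When all probe sets of a gene were averaged, 1462 genes were higher and 1051 lower, and with every probe set tested on its own 3335 were higher and 1800 lower, which turns the balance. At least 2-fold differences were found in 72 of the higher and 123 of the lower genes. The groups of arrays did not overlap at 499 of all genes with higher values in Math1-GFP (4.03%) and at 821 with lower values (6.64%). The median log2 difference over all genes was -0.03. The number of genes called rests on several arrays. It was 1193 without Math1-GFP 6, 1229 without conventional 4 and 3247 on the arrays with the title mark alone. With conventional 1 and 6 as the only controls, 255 genes passed, of which 186 were among the 1972 in the same direction. The shares of all genes called higher and lower, beside which the list counts of each fit are to be read, were 11.2% and 15.1% on the arrays with the title mark, and 0.906% and 1.16% against conventional 1 and 6 alone. They were 1.86% and 3.33% without the 3 conventional arrays that carried signal of a Y-linked gene.

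Which genes passed also moved with brightness. In the brightest 10% of genes the median log2 difference was -0.21, with 49 genes called higher and 345 lower. After quantile normalization the same median was -0.01, with 136 higher and 195 lower. Over all genes, quantile normalization called 700 higher (5.66%) and 1372 lower (11.1% of 12378), so that 33.8% of calls were higher, against 42.7% as deposited, 28.5% after median centring, 58.2% with the mean of probe sets and 64.9% with every probe set. Of the 1972 calls, 1567 were also called in the same direction after quantile normalization. A core of 146 genes, 55 higher and 91 lower, passed in the same direction as deposited, after quantile normalization, on the arrays with the title mark, against conventional 1 and 6 alone, and without the 3 conventional arrays that carried signal of a Y-linked gene.

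A further pattern followed the length of the gene. In the shortest 10% of genes by genomic span, introns included (median 2.66 kb in the RefSeq annotation), the median log2 difference was -0.23, with 18 genes higher (1.46%) and 271 lower (21.9%). In the longest 10% (median 213 kb) it was 0.05, with 113 higher (9.16%) and 38 lower (3.08%). The genes called lower had a median span of 10.5 kb and those called higher one of 42.7 kb, beside 23.5 kb over all genes tested. The medians of these shortest and longest genes were -0.23 and -0.01 after quantile normalization, -0.20 and 0.18 against conventional 1 and 6 alone, and -0.19 and 0.10 with the mean of probe sets. The 3' to 5' ratios given above moved with the model too, and their part in this pattern was not tested.

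**Figure D1:**
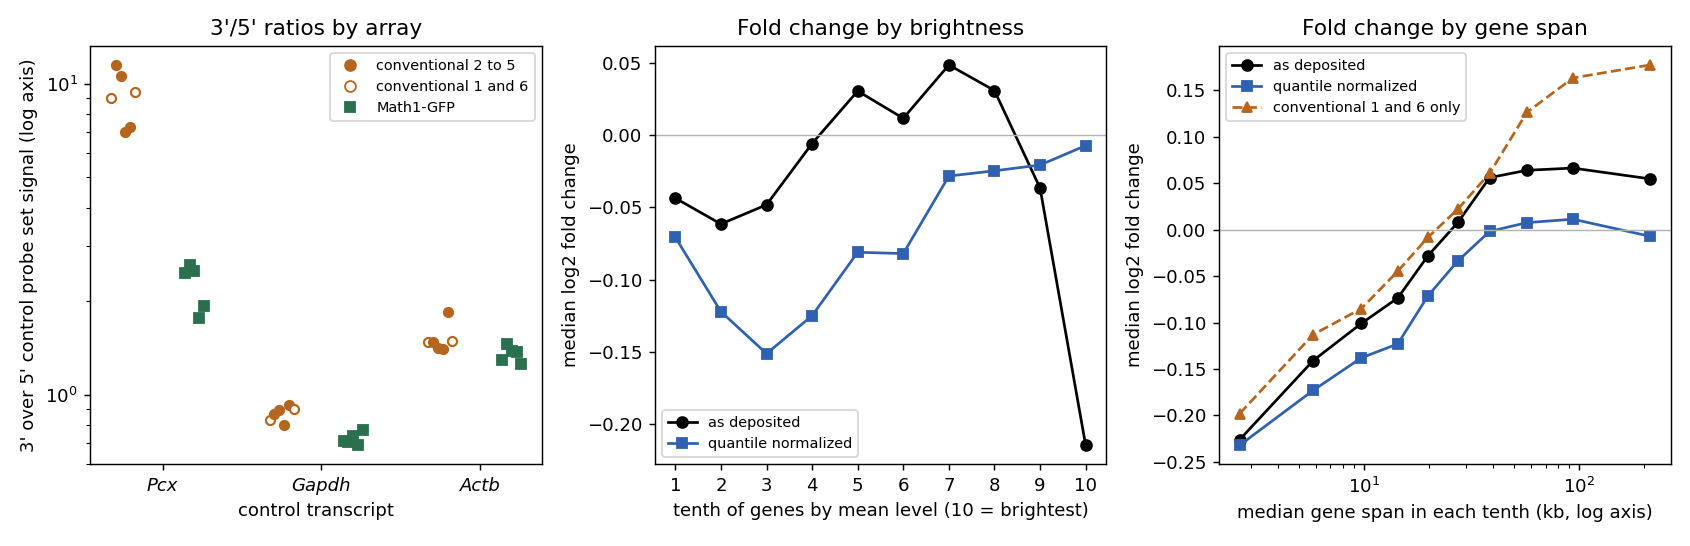
Array measures and gene properties that moved with the model in CD15 negative cells. The left panel plots the 3' to 5' ratio of control probe sets on each array (log axis; Pcx was 7.00 to 11.5 in conventional and 1.76 to 2.62 in Math1-GFP arrays); the other panels plot the median log2 difference in 10 classes of brightness (-0.21 in the brightest as deposited, -0.01 after quantile normalization) and in 10 classes of gene span (-0.23 in the shortest, 0.05 in the longest).

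The genes with the widest gap between the groups passed in all 5 of those fits. The fits share the arrays by which these genes were chosen, so this is no independent support. Nol6, a nucleolar protein of ribosome assembly, had signals of 48.2, 79.1 and 88.3 (lowest, median and highest of 6) in the conventional arrays, and 218, 189, 223, 256 and 185 in Math1-GFP arrays 2, 4, 6, 8 and 10. Every Math1-GFP array was above every conventional array, at 2.37-fold on the scale of log2 of signal plus 32 used for all fold changes here (log2 1.24 ± 0.14 SE, limma adjusted p = 0.00081). Zbtb44, a zinc finger protein, had 276, 304 and 331 in conventional arrays and 716, 674, 527, 665 and 549.7 in Math1-GFP arrays (log2 0.97 ± 0.11, limma adjusted p = 0.00081). Speer4cos had 2.13 to 8.00 against 36.8 to 65.4. All of its conventional values were below the filter of 15.53 and it was tested only because of the Math1-GFP arrays, so its size is given as signals alone. Ctse, the protease cathepsin E, had 16.1, 36.8 and 109 in conventional arrays and 446, 349, 408, 304 and 308 in Math1-GFP arrays, 5.11-fold higher (log2 2.35 ± 0.28, limma adjusted p = 0.00081). Of its 2 probe sets, 1 went the other way.

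On the lower side, Ndufa13, a subunit of respiratory complex I, had 3023, 3300.2 and 3329 in conventional arrays and 1525, 1804, 1634, 1573 and 1570.2 in Math1-GFP arrays. The conventional arrays were 1.97-fold higher with no overlap (log2 -0.98 ± 0.09, limma adjusted p = 0.0004). Cstb, the protease inhibitor cystatin B, had 1033, 1229 and 1295 against 479, 563, 537, 562 and 581, 2.14-fold higher in conventional tumours (log2 -1.10 ± 0.10, limma adjusted p = 0.0004). Nop10, a small protein of the RNA-modifying H/ACA particles, had 3728, 3890.5 and 4726 against 1369.9, 2143, 2076, 2012 and 1760.4 (log2 -1.10 ± 0.13). Atox1, a copper chaperone, differed by -1.13 ± 0.13 and Pcbd1, a recycling enzyme of tetrahydrobiopterin, by -1.28 ± 0.15, both with no overlap between the groups. In each of these genes the 5 Math1-GFP values lay below the lowest of the 6 conventional values.

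**Figure D2:**
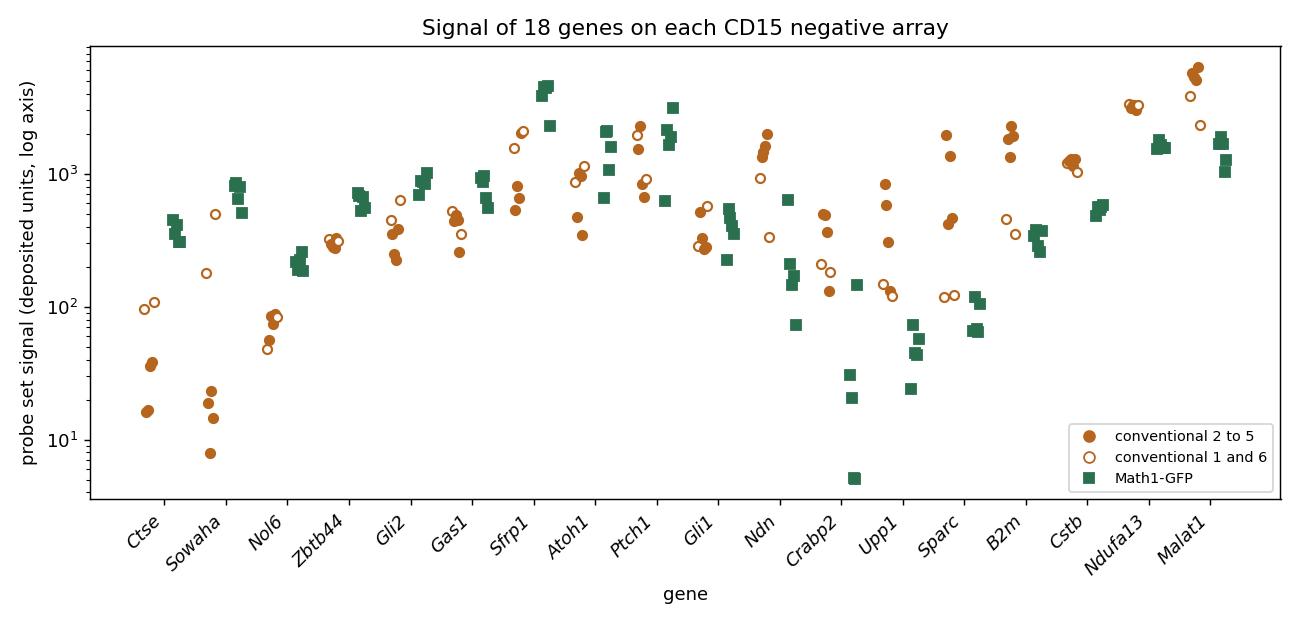
Signal of 18 genes on each CD15 negative array (deposited units, log axis). Circles are conventional arrays, open for 1 and 6 and filled for 2 to 5, and squares are Math1-GFP arrays. Ctse, Sowaha, Nol6 and Zbtb44 lie higher in every Math1-GFP array, Cstb and Ndufa13 lower in every one, while Ptch1 and Gli1 overlap; for Sparc and B2m the open circles lie near the squares.

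The largest increases were in genes whose conventional values were spread widely. Mid1, a ubiquitin ligase at the border of the X chromosome's shared region and variable between mouse strains, had 1.47, 20.9 and 284 in conventional arrays and 1296, 259, 1589, 640.3 and 212 in Math1-GFP arrays. The highest conventional value was array 1, which lay above 2 of the Math1-GFP arrays, and the fitted difference was 3.29 ± 0.61 (9.76-fold, limma adjusted p = 0.0052). Sowaha, an ankyrin repeat protein, had 7.91, 21.1 and 500.2 in conventional arrays and 802, 851, 644, 789 and 510.4 in Math1-GFP arrays (log2 3.02 ± 0.59, 8.09-fold, limma adjusted p = 0.00635). Its 2 highest conventional values, 179 and 500.2, were arrays 1 and 6, and the groups did not overlap. Epha8, an ephrin receptor, had 3.46, 9.92 and 535 against 221, 537, 459, 465 and 366 (log2 2.45 ± 0.65), again with conventional 6 the highest of its group and inside the Math1-GFP range. Gpr153, an orphan receptor, had 71.5, 455 and 1464 against 1512, 1911, 2004, 1623 and 1821 (log2 2.14 ± 0.57). Ptchd1, a membrane protein of the patched domain family, had 10.5, 70.2 and 157 against 358, 261, 429, 261 and 308, with no overlap (log2 1.79 ± 0.31, limma adjusted p = 0.0040).

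Sfrp1, a secreted Wnt antagonist that is a Hedgehog target, had 534, 1182 and 2090.3 in conventional arrays and 3844, 4467, 4390.1, 4601 and 2278 in Math1-GFP arrays. It was 3.34-fold higher with no overlap (log2 1.74 ± 0.36, limma adjusted p = 0.0079). The other genes among the 12 largest increases were Cadps2, a regulator of vesicle release (2.06 ± 0.60), Ebf2, a transcription factor (1.73 ± 0.45), Galc, the lysosomal galactosylceramidase (1.68 ± 0.44), the gene model Gm20559 (1.67 ± 0.44) and Efhd2, a calcium-binding protein (1.64 ± 0.47). For 8 of these 12, conventional 1 and 6 were nearer to the Math1-GFP arrays than to the other conventional arrays, as they were for 172 of all 842 genes called higher.

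The 12 largest decreases included matrix proteins, retinoic acid-binding proteins and the imprinted gene Ndn. Edaradd, an adaptor of the ectodysplasin receptor, had 18.9, 555 and 1800.2 in conventional arrays and 10.6, 14.3, 7.37, 35.5 and 28.8 in Math1-GFP arrays (limma adjusted p = 0.041). The lowest conventional value was array 1, inside the Math1-GFP range. Of the Math1-GFP values 3 were below the filter of 15.53, so no size is given. Pltp, the phospholipid transfer protein, had 500.2, 1103 and 5788 against 74.8, 469, 379.5, 179.5 and 252, with no overlap (log2 -2.40 ± 0.64). Ndn, necdin, which restrains proliferation in neurons and is imprinted, had 334, 1403 and 2007 against 639, 209, 146, 170.2 and 73.1. Only Math1-GFP 2 reached the conventional range, and all 5 of its probe sets were lower (log2 -2.35 ± 0.48, 5.10-fold, limma adjusted p = 0.0078).

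Both cellular retinoic acid-binding proteins were among them. Crabp2 had 131, 285 and 497 in conventional arrays and 30.4, 20.6, 5.11, 5.08 and 146 in Math1-GFP arrays (log2 -2.37 ± 0.42, limma adjusted p = 0.0043). Crabp1 had 16.4, 161 and 298 against 2.16, 3.02, 8.47, 1.17 and 16.8. Of these Math1-GFP values 4 were below the filter of 15.53, at a level not shown to be above background, so no size is given. In both genes only Math1-GFP 10 reached the conventional range. Upp1, uridine phosphorylase, had 121, 227 and 837 against 24.0, 73.1, 44.5, 43.0 and 57.4, with no overlap (log2 -1.96 ± 0.43), and stayed among the 146 core genes. The remaining largest decreases were Sparc (-2.11 ± 0.60), Mgp (-1.97 ± 0.57), Sbspon (-1.96 ± 0.61), Igfbp7 (-1.95 ± 0.57), Islr (-1.93 ± 0.45) and the interferon-induced Ifitm3 (-1.89 ± 0.55). For 10 of the 12 largest decreases, conventional 1 and 6 were nearer to the Math1-GFP arrays, as they were for 197 of all 1130 genes called lower.

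Among 21 tested Hedgehog pathway genes, 4 were higher in Math1-GFP cells and 0 lower, where 6.81% and 9.14% of all genes were. The median log2 difference was 0.27. Gli2, the transcription factor that transmits most of the activating signal, had 223, 368 and 633 in conventional arrays and 697, 874, 861, 842 and 1017 in Math1-GFP arrays. It was 2.25-fold higher with no overlap (log2 1.17 ± 0.22, limma adjusted p = 0.0053). Gas1, a co-receptor for Hedgehog ligands, had 256, 443 and 529 against 922, 873, 962, 656 and 557, also with no overlap (log2 0.88 ± 0.19, limma adjusted p = 0.011). Mycn, a target that drives precursor proliferation, had 673, 1102 and 1979 against 1923, 2505, 1823, 2035 and 2044, with overlap at the top of the conventional range (log2 0.77 ± 0.24, limma adjusted p = 0.045). Sfrp1, described above, was the remaining member called.

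The targets most often used to read pathway activity did not pass. Ptch1 itself had 668, 1223 and 2268 in conventional arrays and 620.1, 2133, 1654, 1879 and 3144 in Math1-GFP arrays, which overlapped widely (log2 0.43 ± 0.40, limma adjusted p = 0.487). The labels do not say which part of Ptch1 was lost, so its signal checks no label here. Gli1 had 274, 309 and 568 against 226, 542, 468, 406 and 350.4 (log2 0.08 ± 0.24, limma adjusted p = 0.844). Hhip, a feedback inhibitor, differed by 0.49 (limma adjusted p = 0.31), Smo by 0.36 (0.29) and the cyclin Ccnd1 by 0.10 (0.71). Against conventional 1 and 6 alone, none of the list was called and its median was 0.18. On the arrays with the title mark 7 were higher and 4 lower (median 0.35), so the count of 0 lower holds for the full set of arrays.

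Granule neuron precursor factors gave almost no calls. Of 20 tested, 0 were called higher and 1 lower, with a median of 0.02, beside 6.81% and 9.14% of all genes. Atoh1, the gene behind the Math1 name, had 343, 916 and 1135 in conventional arrays and 655, 2044, 2083, 1076 and 1597 in Math1-GFP arrays. Most Math1-GFP arrays were above most conventional ones, but the groups overlapped (log2 0.87 ± 0.35, limma adjusted p = 0.108). On the arrays with the title mark only, the difference was 1.33 and passed (limma adjusted p = 0.020). Pax6 differed by 0.87 (limma adjusted p = 0.10) and Zic1 by -0.21 (0.42). Sox11 was the member called lower (-0.72 ± 0.21, limma adjusted p = 0.037), but only 4 of its 6 probe sets agreed in direction and 1 differed the opposite way.

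Of 31 neuronal genes tested, 2 were higher and 3 lower (median -0.09), shares near the 6.81% and 9.14% of all genes. With the marked arrays only, 2 were higher and 7 lower, and in CD15 positive cells 8 were higher and 1 lower (median 0.21). Reln, the secreted signal reelin made by granule neurons, had 1688, 2482 and 3867 in conventional arrays and 4366, 5493, 4563, 4478 and 4052 in Math1-GFP arrays, with no overlap (log2 0.86 ± 0.17, limma adjusted p = 0.0078). Nrcam, an adhesion molecule of axons, was higher by 0.79 ± 0.21. Stmn3, a regulator of microtubules in neurites, had 4936, 5411 and 6885 against 3614, 3877, 3185, 3457 and 3843 (log2 -0.63 ± 0.12, limma adjusted p = 0.0052). Chgb, a protein of secretory granules, had 1067, 2163 and 2462 against 1118, 809, 817, 826 and 1171 (log2 -0.99 ± 0.22), and the RNA-binding protein Elavl4 was lower by -0.78 ± 0.19. Core markers of the neuronal state did not pass: Dcx differed by 0.08 (limma adjusted p = 0.84) and Tubb3 by -0.57 (0.23).

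Of 30 S phase genes, 5 were higher in Math1-GFP cells and 0 lower (median 0.13), against 6.81% and 9.14% of all genes. In CD15 positive cells 1 was higher and 5 lower (median -0.22); this difference between the fractions was not tested for the list. Mcm2, a subunit of the replicative helicase, had 588, 709.7 and 1195 in conventional arrays and 962, 1543, 1270.4, 1456 and 1432 in Math1-GFP arrays, and Math1-GFP 2 was the array that overlapped (log2 0.75 ± 0.19, limma adjusted p = 0.022). The others were Orc1 of the origin recognition complex (0.46 ± 0.12), Ccne2, cyclin E2 (0.49 ± 0.15), E2f1, the transcription factor of S phase entry (0.37 ± 0.12), and Pole, a replicative polymerase (0.45 ± 0.14). Of 28 genes of G2 and M phase, 3 were higher and 0 lower (median 0.20). Cenpf, a kinetochore protein, had 302, 468 and 553 against 858, 739.9, 934, 689.7 and 717, with no overlap (log2 0.83 ± 0.17, limma adjusted p = 0.0078). Kif23 (0.74 ± 0.21) and Cenpe (0.67 ± 0.21), both motors of mitosis, were higher, while Mki67 differed by 0.55 (limma adjusted p = 0.088) and Cdk1 by -0.31 (0.29). Against conventional 1 and 6 alone, none of either list was called, and the medians were 0.06 and -0.07.

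Of 16 tested targets of p53, the tumour suppressor that answers DNA damage, 3 were higher and 0 lower (median 0.28). Mdm2, the ubiquitin ligase that degrades p53, had 245, 276 and 291 in conventional arrays and 543, 333, 423, 411 and 370.4 in Math1-GFP arrays, with no overlap (log2 0.54 ± 0.12, limma adjusted p = 0.012). Zmat3 was higher by 0.59 ± 0.16 and the death receptor Eda2r by 0.76 ± 0.24. Cdkn1a, the cell cycle inhibitor p21, differed by 0.01 (limma adjusted p = 0.99). The share called higher over all genes was 6.81%. Against conventional 1 and 6 alone 3 members were called, without Mdm2 (adjusted p = 0.129). The count was 2 after quantile normalization, and 1 each on the arrays with the title mark (median 0.06) and without the conventional arrays with Y-linked signal.

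Of 19 genes of neural stem cells and radial glia, 3 were higher and 0 lower, although the median of the list was -0.22, where 6.81% of all genes were higher. With the marked arrays only, 3 were higher and 5 lower (median -0.46), and against conventional 1 and 6 alone none was called (median 0.24). Sox2, a stem cell transcription factor, had 16.8, 23.2 and 32.5 in conventional arrays and 27.4, 106, 50.8, 142 and 54.7 in Math1-GFP arrays, low values in which only Math1-GFP 2 fell inside the conventional range (log2 0.83 ± 0.23, limma adjusted p = 0.030). The differentiation inhibitors Id1 (1.18 ± 0.37) and Id4 (0.77 ± 0.23) were the remaining members. Nes, nestin, differed by 0.40 (limma adjusted p = 0.60). None of 16 astrocyte markers passed (median -0.30; 0.29 against conventional 1 and 6 alone), among them Gdf10 (1.57 ± 0.52, limma adjusted p = 0.054) and Gja1 (-1.87, 0.056). On the arrays with the title mark 1 astrocyte marker was higher and 4 were lower (median -0.47). With the mean of probe sets 2 were higher and 0 lower. Of 11 genes of the oligodendrocyte lineage 1 was higher and 1 lower (median 0.00). Pdgfra, the growth factor receptor of oligodendrocyte precursors and of fibroblasts, had 278, 588 and 1028 against 849.7, 1814, 1902, 1668 and 1872 (log2 1.39 ± 0.29, limma adjusted p = 0.0083), with Math1-GFP 2 the array inside the conventional range. Omg was the member called lower. Its Math1-GFP values other than array 8 were below the filter of 15.53, so no size is given. Olig2 differed by 0.40 (limma adjusted p = 0.64).

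**Figure D3:**
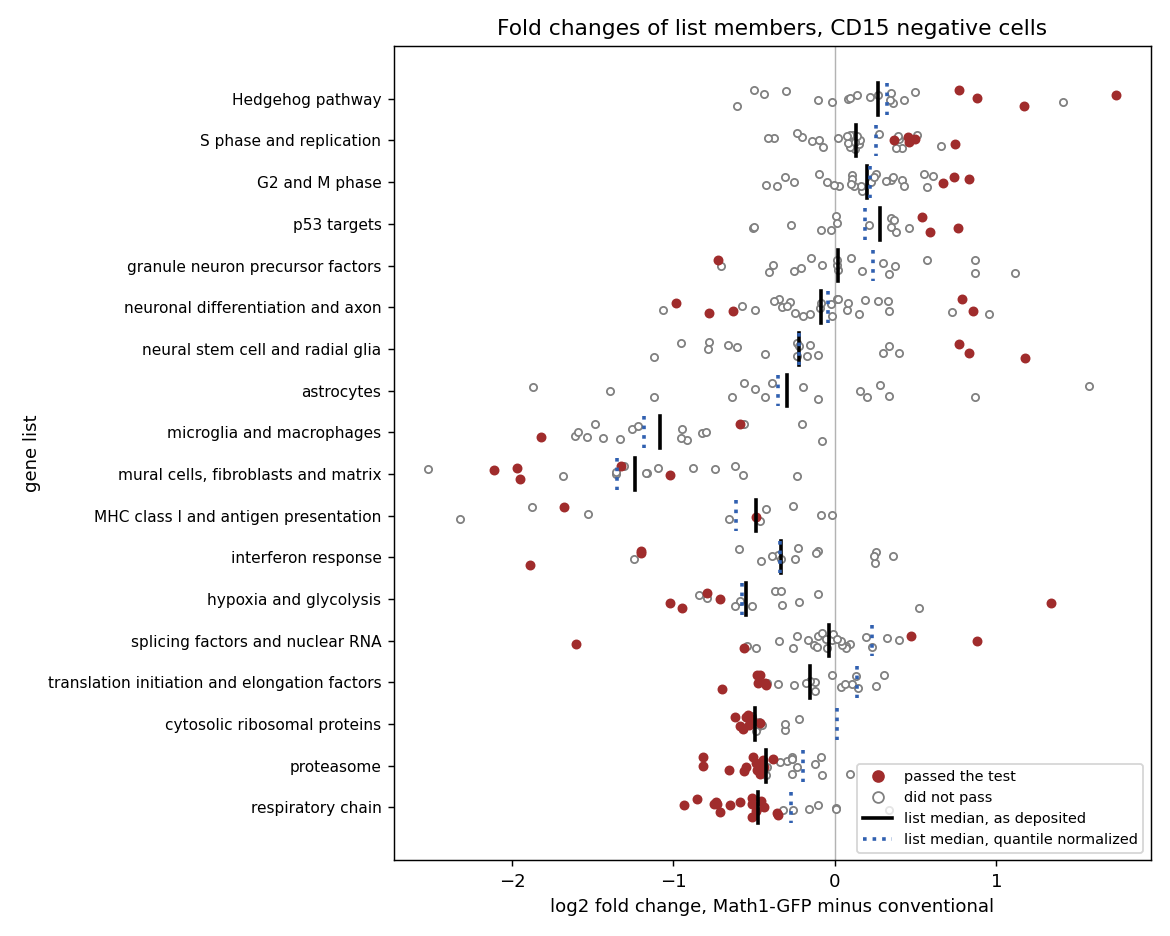
Log2 difference (Math1-GFP minus conventional, CD15 negative) of every tested member of 18 gene lists; filled red points passed limma at an adjusted p under 0.05, the black bar is the median as deposited and the blue dotted bar the median after quantile normalization. Respiratory chain (16 of 25) and proteasome (13 of 26) members lie to the lower side, Hedgehog members passed only on the higher side (4 of 21), and the median of ribosomal proteins moved from -0.49 to 0.01 after quantile normalization.

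Markers of microglia and of mural and matrix cells had lower signals in the Math1-GFP arrays, and few of them passed singly. In these bulk samples fewer cells of a type and less RNA per cell cannot be told apart. All 18 tested microglia and macrophage markers had a fold change below 1, with a median of -1.08. Of them 2 were called lower, a share near the 9.14% of all genes. Tyrobp, an adaptor of microglial receptors, had 41.4, 201 and 935 in conventional arrays and 34.2, 42.5, 23.1, 30.2 and 40 in Math1-GFP arrays (log2 -1.82 ± 0.53, limma adjusted p = 0.034), and P2ry12, a receptor of resident microglia, was lower by -0.59 ± 0.17. The summed signal of the list was 553 to 8372 in conventional arrays, where arrays 1, 3 and 6 had 1455, 1310 and 553, and 516 to 1102 in Math1-GFP arrays. On the arrays with the title mark 14 of the 18 were lower, and against conventional 1 and 6 alone none was called (median -0.09).

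Of the mural, fibroblast and matrix genes, all 18 tested had a fold change below 1 (median -1.24) and 5 were called lower, beside 9.14% of all genes. Sparc, a matrix glycoprotein, had 118, 441 and 1954 in conventional arrays and 65.9, 117, 67.8, 64.5 and 104 in Math1-GFP arrays, just without overlap, since conventional 1 and 6 were at 118 and 121. Mgp, a matrix inhibitor of calcification, had 70.7, 208 and 1628 against 23.5, 57.5, 8.60, 46.9 and 63.4. The others were Igfbp7, Acta2, smooth muscle actin (-1.32 ± 0.39), and Myl9, its myosin light chain (-1.02 ± 0.23). The summed signal was 1094 to 13970 in conventional and 740 to 1379 in Math1-GFP arrays. On the arrays with the title mark 14 were lower (median -1.76). Against conventional 1 and 6 alone the median was -0.15 and none was called. Of 9 endothelial markers, the cells that line vessels, 1 was lower, Eng (-0.59 ± 0.14). Their median was -0.09, and Cldn5 differed by -0.09 (limma adjusted p = 0.85).

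**Figure D4:**
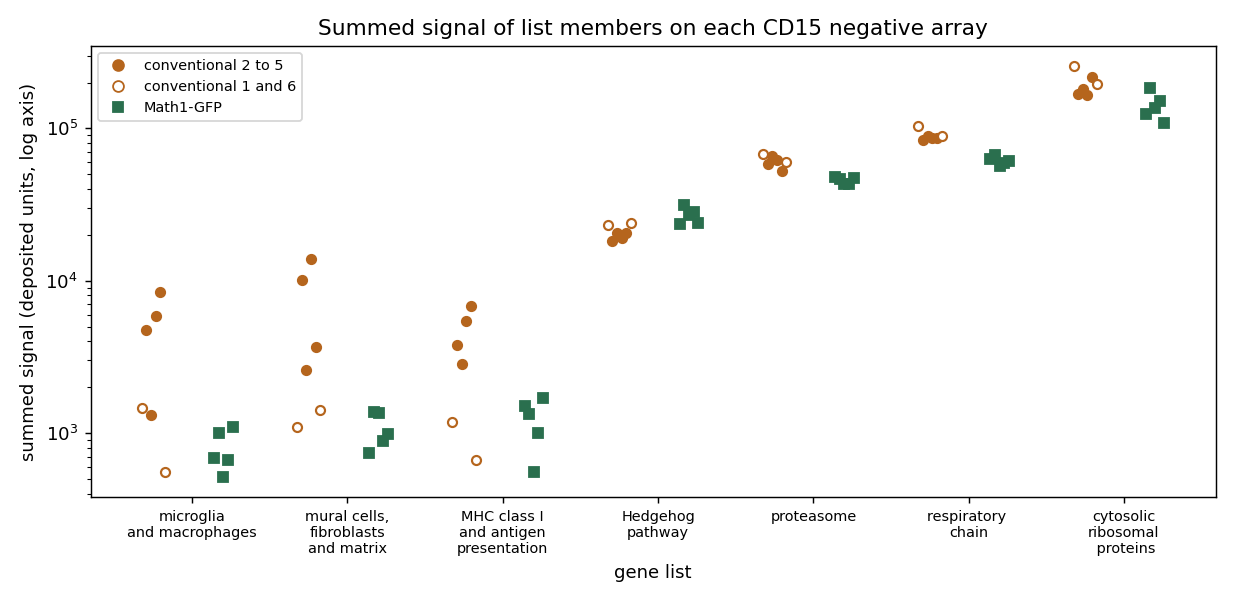
Summed signal of the members of 7 gene lists on each CD15 negative array (log axis); open circles are conventional 1 and 6, filled circles conventional 2 to 5, squares Math1-GFP arrays. For microglia and macrophages, and for mural cells, fibroblasts and matrix, conventional 1 and 6 lie near the Math1-GFP arrays (sums of 1455 and 553, and of 1094 and 1426), as does conventional 3 for microglia (1310).

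Of 11 genes of MHC class I and antigen presentation, 2 were lower (median -0.49), and of 17 interferon response genes 3 (median -0.33), beside 9.14% of all genes. B2m, the light chain of MHC class I, had 351, 1582 and 2286 in conventional arrays and 339.7, 376, 287, 258 and 373 in Math1-GFP arrays (log2 -1.68 ± 0.43, limma adjusted p = 0.022). Its 2 lowest conventional values, 351 and 458, were arrays 6 and 1. Psmb10, an immunoproteasome subunit, was lower by -0.49 ± 0.12, while H2-K1 differed by -0.02 (limma adjusted p = 0.98). On the arrays with the title mark 7 members were lower, and against conventional 1 and 6 alone none (median 0.08). The interferon response genes called were Ifitm3, with 109, 582 and 1550.0 against 112, 118, 63.6, 73.8 and 102, Ifi27 (-1.20 ± 0.23) and Ifi35 (-1.20 ± 0.27). Classical induced genes such as Ifit3 (-0.35, limma adjusted p = 0.23) and Irf7 (-0.33, 0.14) did not pass. What part the microglial and matrix RNA has in these differences was not tested.

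Other cell types gave few calls, to be read beside 6.81% of all genes higher and 9.14% lower. No member was called among 6 tested neutrophil markers (median -0.22; Mmp9 -0.45 ± 0.28, limma adjusted p = 0.28), 2 lymphocyte markers (median -0.14; Ighm -0.35 ± 0.30, adjusted p = 0.46) and the single erythroid marker tested, Car2 (-0.17 ± 0.24, adjusted p = 0.67). Below the brightness filter were 5 of the 12 neutrophil, 9 of the 14 lymphocyte and 4 of the 10 erythroid markers listed. Of 4 genes of Purkinje cells and inhibitory neurons 1, Pcp4, was higher (0.57 ± 0.18; list median -0.42). Of 8 genes of choroid plexus and ependyma 1, Igfbp2, was lower (-1.35 ± 0.34, limma adjusted p = 0.019; list median -0.11), while Otx2 differed by 2.43 without passing (adjusted p = 0.077).

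Genes of the respiratory chain were lower in Math1-GFP cells, 16 of 25 tested with 0 higher, against 9.14% of all genes lower. The median was -0.48, and at 15 of the 25 the groups did not overlap. Over all genes, 4.03% had no overlap with higher values in Math1-GFP and 6.64% with lower values. Cox5b, a subunit of cytochrome c oxidase, had 5786, 6320.3 and 8482 in conventional arrays and 3552, 4030.2, 2641, 3299 and 3583 in Math1-GFP arrays (log2 -0.94 ± 0.14, limma adjusted p = 0.0019). Cox7a2, another subunit of the same enzyme, had 9307, 9998 and 12896 against 6167, 6744, 5525, 5041 and 5292 (log2 -0.85 ± 0.12, limma adjusted p = 0.0019). Cox5a was lower by -0.73 ± 0.11 and Atp5g1, of the ATP synthase ring, by -0.75 ± 0.11.

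The decrease reached every complex but not every subunit. It covered 5 of 8 complex I genes, 1 of 2 of complex II, 1 of 3 of complex III, 5 of 6 of complex IV, cytochrome c, and 3 of 5 of ATP synthase, a split by complex made after the values were seen. Ndufa9 and Atp5a1 were not called, both at 0.00, nor was Cox7c, at 0.33 (limma adjusted p = 0.30). Taking every tested gene whose symbol begins with Nduf, Cox4 to Cox8, Uqcr or Atp5, a set also chosen after seeing values, 62 of 82 were lower and 0 higher, and 53 were lower after quantile normalization. Of these 82 genes, 23 were in the core, which held 146 of all 12367 genes tested. In the list, 9 members were lower after quantile normalization (median -0.27), 4 against conventional 1 and 6 alone (median -0.49) and 11 without the 3 conventional arrays with Y-linked signal (median -0.52). The median span of the list was 7.08 kb, in the range where most genes called were lower.

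The proteasome, which degrades ubiquitinated proteins, was lower in 13 of 26 genes with 0 higher (median -0.42; -0.30 with the mean of probe sets, again 13 lower), against the same 9.14% of all genes. At 12 of the 26 the groups did not overlap, beside 4.03% of all genes with higher and 6.64% with lower values in Math1-GFP. Psmb3 had 2391, 2600.4 and 3186 in conventional arrays and 1566, 1692, 1314, 1341 and 1532 in Math1-GFP arrays (log2 -0.82 ± 0.11, limma adjusted p = 0.0016). Psmb6, a catalytic subunit (-0.66 ± 0.10), Psma5 (-0.82 ± 0.14) and Psmb5, the subunit that bortezomib inhibits (-0.55 ± 0.11), followed. By particle, a split made after the values were seen, 10 of 14 genes of the core particle were lower (median -0.47) and 3 of 12 of the regulatory particle (median -0.26); the difference between the particles was not tested. After quantile normalization 7 members were lower (median -0.20), 3 against conventional 1 and 6 alone (median -0.47) and 9 without the arrays with Y-linked signal (median -0.49). The median span of the proteasome list was 12.8 kb, also in the range where most genes called were lower.

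Promoters of the proteasome list are shown because so many of its members were lower together. The motif searched was that of NRF1, nuclear respiratory factor 1 (GCGCA, any base, then GCGC, on either strand). It lay in the 250 bases before the first listed RefSeq start (GRCm38.p6) of 6 of 22 proteasome genes with a promoter there (27.3%). The share was 3.86% over all 27025 promoters, 8.5% over tested genes, 11% of the genes called lower and 9.41% of those called higher. It lay in 1 of 20 respiratory chain promoters. The windows around it in the 4 genes that were also called lower follow, written 5' to 3' on the strand of the gene with the motif in capitals.
Psma2, chr13:14613075-14613164, + strand: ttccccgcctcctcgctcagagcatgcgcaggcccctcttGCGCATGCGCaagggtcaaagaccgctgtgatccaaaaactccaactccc
Psma3, chr12:70974505-70974594, + strand: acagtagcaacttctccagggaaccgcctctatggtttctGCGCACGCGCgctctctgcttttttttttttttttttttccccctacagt
Psma4, chr9:54950758-54950847, + strand: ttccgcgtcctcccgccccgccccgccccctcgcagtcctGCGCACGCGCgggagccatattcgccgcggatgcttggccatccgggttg
Psmd14, chr2:61711574-61711663, + strand: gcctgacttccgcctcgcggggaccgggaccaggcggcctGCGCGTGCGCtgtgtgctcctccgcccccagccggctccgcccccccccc
In these the motif began 127, 78, 61 and 80 bases before the start. Their log2 differences were -0.46 for Psma2, -0.56 for Psma3, -0.38 for Psma4 and -0.45 for Psmd14. Psmc4 (-0.26, limma adjusted p = 0.17) and Psmc5 (-0.24, 0.32) had the motif and were not called. Psmb3, Psmb6, Psma5 and Psmb5, the members described above, were not among the 6 genes with the motif. The ETS motif CCGGAAG lay in 7 of 22 proteasome promoters (31.8%; 7.05% of all promoters and 13.7% of tested genes), and the GLI motif GACCACCCA in 0 of 14 Hedgehog promoters (0.211% of all). These matches describe letters in the windows and no binding was measured.

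Cytosolic ribosomal proteins were lower in 8 of 17 genes as deposited (median -0.49), among them Rpl11 (-0.55 ± 0.13, limma adjusted p = 0.014), Rpl27 (-0.54 ± 0.13), Rps19 (-0.57 ± 0.15) and Rpsa (-0.59 ± 0.17). After quantile normalization none was called and the median was 0.01, so the decrease was not seen under that scaling. The median span of these genes was 3.95 kb, in the range where most genes called were lower. Of 21 translation factors 6 were lower (median -0.15), with Eif6 (-0.43 ± 0.10), Eif3f (-0.48 ± 0.12), Eef1d (-0.70 ± 0.18) and Eif3h (-0.46 ± 0.12) leading. After quantile normalization 3 were higher and 2 lower, with a median of 0.14. The share of all genes called lower was 9.14% as deposited. Quantile normalization called 5.66% of all genes higher and 11.1% lower.

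Splicing factors and nuclear RNAs had 2 higher and 2 lower of 28 (median -0.03), shares near the 6.81% and 9.14% of all genes. Malat1, a long noncoding RNA of nuclear speckles, had 2338, 5193 and 6405 in conventional arrays and 1675, 1888, 1688, 1022 and 1276 in Math1-GFP arrays, 3.04-fold higher in conventional tumours with no overlap (log2 -1.60 ± 0.25, limma adjusted p = 0.0023). Of its 7 probe sets, 4 were in this direction and 2 differed the opposite way. Srsf10, a splicing regulator, had 683, 939.8 and 1239 against 1976, 1538, 1696, 1959 and 1731, with no overlap (log2 0.88 ± 0.15, limma adjusted p = 0.0034). Pnisr was higher by 0.47 ± 0.13, and Son lower by -0.57 ± 0.13 in its brightest probe set, with 3 of 7 probe sets opposite. After quantile normalization 8 members were higher and 1 lower (median 0.23).

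Genes of hypoxia and glycolysis were lower in 4 and higher in 1 of 16 (median -0.55), where 9.14% and 6.81% of all genes were. Slc2a1, the glucose transporter GLUT1, had 198, 269.6 and 457 in conventional arrays and 67.3, 160.0, 120.2, 184 and 115 in Math1-GFP arrays, with no overlap (log2 -1.02 ± 0.22, limma adjusted p = 0.0091). Aldoa (-0.95 ± 0.24) and Pfkl (-0.71 ± 0.22), enzymes of glycolysis, and Egln3 (-0.79 ± 0.23), an oxygen sensor induced by hypoxia, were also lower. Hk2, hexokinase 2, the enzyme that opens glycolysis, went the other way, with 542, 847 and 2407 against 1454, 3695, 3246, 2830.4 and 2207 (log2 1.34 ± 0.34, limma adjusted p = 0.022). Vegfa differed by -0.10 (adjusted p = 0.78). Unlike the immune and matrix lists, this list had more members lower, 9, against conventional 1 and 6 alone (median -1.07), and 1 lower on the arrays with the title mark (median -0.18).

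Of 21 immediate early genes 2 were lower (median -0.26), a share near the 9.14% of all genes. Btg2, an antiproliferative gene, had 1965, 2180.4 and 3401 in conventional arrays and 669.7, 1268, 1384, 492 and 1264 in Math1-GFP arrays, with no overlap (log2 -1.31 ± 0.26, limma adjusted p = 0.0072), and Junb was lower by -0.78 ± 0.16. Fos differed by -0.26 (adjusted p = 0.39) and Egr1 by -0.59 (0.16). Of 23 genes of heat shock and the unfolded protein response 3 were lower (median -0.15): Hspa8 (-0.61 ± 0.16), Xbp1 (-0.75 ± 0.21) and Sdf2l1 (-0.71 ± 0.22). After quantile normalization 1 was higher and 2 lower.

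The next lists are to be read beside 6.81% of all genes higher and 9.14% lower. Of 16 cholesterol synthesis genes 1, Sc5d, was higher (0.85 ± 0.18; list median 0.04). With the marked arrays only, 5 were higher (median 0.35), and against conventional 1 and 6 alone 1 was lower (median -0.32). Of 7 Wnt targets 2 were higher (median 0.53), the ubiquitin ligase Znrf3 (0.53 ± 0.15) and the R-spondin receptor Lgr5 (0.60 ± 0.18), and none passed after quantile normalization. Both histone genes tested were uncalled (median -0.11; H3f3a -0.17 ± 0.19, limma adjusted p = 0.57). Of 12 genes of CD15 synthesis 1 was higher and 1 lower (median 0.04), Fut10, a fucosyltransferase (0.79 ± 0.20), and B4galt6 (-0.59 ± 0.13), whose 4 probe sets did not share a direction. Fut9, the fucosyltransferase that makes CD15 in the brain, had 275, 312 and 469 in conventional arrays and 305, 553, 611, 634 and 464 in Math1-GFP arrays (log2 0.57 ± 0.19, adjusted p = 0.054). Fut4, the other CD15 synthase, was below the filter, at 4.09 to 20.9 against 0.87 to 8.23.

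Genes of the sex chromosomes varied within both groups. Xist, the RNA of the silenced X chromosome in females, had 8165 and 6309 in conventional 1 and 3 and 15.8 to 40.5 in the other 4, and 4917, 1038, 6335, 2535 and 53.4 in Math1-GFP arrays (log2 2.38 ± 1.60, limma adjusted p = 0.32). Eif2s3y, on the Y chromosome, had 643, 814 and 829 in conventional 2, 4 and 5 and at most 13.9 elsewhere. All of its Math1-GFP values were below the filter of 15.53, so it too is given as signals alone. Conventional 6 and Math1-GFP 10 had neither signal. Of 8 sex chromosome genes 1, Kdm6a, which escapes X silencing, was higher (0.83 ± 0.19, adjusted p = 0.014; list median -0.11). Without the 3 conventional arrays with Eif2s3y signal, 642 genes were called in place of 1972, 589 of them shared in direction. Of 8 tested genes known to vary between inbred strains 1, Mid1, was higher (list median 0.01). Both counts stand beside 6.81% of all genes called higher. Smim20, chosen after its values were seen, had 132 to 185 in conventional 2 to 5, 1.84 and 17.6 in conventional 1 and 6, and 0.61 to 5.62 in Math1-GFP arrays. All of its Math1-GFP values were below the filter of 15.53, so it is given as signals alone. The strains are not given in the labels.

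The CD15 positive fraction gave the same contrast on 10 other arrays, 4 Math1-GFP and 6 conventional, in which 2853 genes were called (23.1%), 10.9% higher and 12.2% lower. The group means share no array with the CD15 negative contrast. The p-values of the CD15 positive contrast come from the fit to all 21 arrays, whose variance includes the CD15 negative arrays. In a fit to all 21 arrays the CD15 negative contrast called 2274 genes. Conventional samples of the fractions carry the same numbers and may come from the same tumours. Of the 1972 CD15 negative calls, 1521 (77.1%, and 53.3% of the CD15 positive calls) were called in both in the same direction, 0 in opposite directions, and 1954 had the same sign. The CD15 positive arrays carried the same split in array measures. Their Pcx 3' to 5' ratio was 5.12 to 12.9 in conventional and 2.24 to 3.60 in Math1-GFP arrays. Their mean signal was 267 to 320 against 241 to 250, and their titles again end in le1 and le2. The part of these in the agreement between the fractions was not tested. No gene passed a test of the difference between the fractions (limma interaction, smallest adjusted p = 0.9998; 279 genes at an unadjusted p under 0.05, where chance gives 618). Its genes of smallest p were Vps13d, which differed between models by -0.10 in CD15 negative and 0.76 in CD15 positive cells (interaction -0.86 ± 0.23, limma adjusted p = 0.9998), and Srgap3 (-0.33 and 0.79; interaction -1.12 ± 0.32, limma adjusted p = 0.9998). The interaction fit treated conventional samples of the same number as independent. With these numbers as a random block (correlation 0.54), 0 genes passed as well. The lack of calls does not show that the model difference is the same in both fractions. Respiratory chain and proteasome genes were lower in 18 of 25 and 20 of 26 in CD15 positive cells. Sparc and Mgp, lower by -2.11 and -1.97 in CD15 negative cells, differed by -0.67 and -0.74 in CD15 positive cells, and the median of their list was -0.42 with none called.

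**Figure D5:**
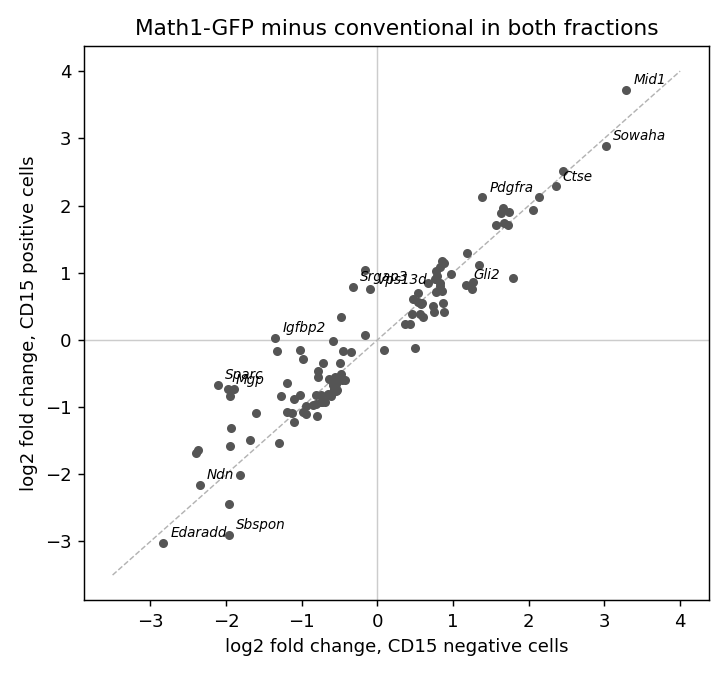
Log2 difference (Math1-GFP minus conventional) of the 112 tested genes chosen for description, in CD15 negative cells (x axis) against CD15 positive cells (y axis). Most lie in the same quadrant in both; no gene passed the test of the difference between the fractions.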

How the data were processed

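RNA of 21 samples was measured on Affymetrix Mouse Genome 430 2.0 arrays. The deposited values are linear intensities per probe set. On every array their mean after removal of the lowest and highest 2% is the same, while their distributions differ. Labels and file headers do not record how the authors computed these intensities. The number of arrays limits the precision.

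For this text, log2 of signal plus 32 was taken. The dimmest 40% of probe sets were left out (mean signal under 15.53), and the brightest probe set stood for each gene. Of the probe sets, 34945 had 1 gene symbol, 932 several and 9211 none, from GEO's platform annotation; 34741 matched RefSeq. The filter left 12367 genes. The models were compared in the 11 CD15 negative arrays with limma 3.58.1 in R 4.3.3 (lmFit, eBayes, Benjamini-Hochberg, threshold 0.05). The CD15 positive contrast and the interaction came from 1 fit to all 21 arrays, since they need all 4 groups. The scripts were tested on simulated data. Replicate numbers shared between the models (2, 4 and 6) did not pair the arrays, so no block was used.

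The comparison and 33 gene lists (656 different genes, 512 tested) were chosen with earlier results of these data known, so no list is independent support. Genes were named by rule: Atoh1, Ptch1, Gli1, Fut9, Fut4, the 12 largest changes and the 5 widest gaps in each direction, up to 4 called members per list of smallest p (or its member of smallest p), and the 2 interaction genes of smallest p. List members outside the rule that are given with values were chosen afterwards as well-known members. Alternatives covered scaling, pseudocount, filter, probe sets, blocks, array weights and each array left out.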

Additional observations from a re-analysis of the deposited data

Results flagged for a closer look

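Of 236 checks of single arrays, 14 found an array further from its group than Dixon's 95% critical value allows, and chance alone gives about 1 in 20. Values are log2 of signal plus 32, each with the nearest array of its group beside it. Conventional 5 was the highest of its group for Fut9 (8.97, next 8.51), Elavl4 (10.97, next 10.36), Ighm (8.41, next 6.88), Car2 (7.32, next 6.18) and the 3' to 5' ratio of Actb (1.84, next 1.49, not on a log scale). It was the lowest for Psmb6 (10.92, next 11.11). Conventional 1 was the highest for Mid1 (8.30, next 5.79), Rpl11 (13.46, next 13.13) and Cox5b (13.06, next 12.70). Conventional 6 was the lowest for Psma5 (11.24, next 11.74). In the Math1-GFP group, array 10 was the lowest for Sfrp1 (11.17, next 11.92), array 2 the lowest for Pdgfra (9.78, next 10.73), and array 8 the highest for Omg (5.84, next 5.33) and Pnisr (9.88, next 9.49). No test of a difference between the CD15 fractions passed.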

How the results depend on the processing

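The count of 1972 genes called was within 1.5 times under quantile normalization, median centring, a smaller and a larger pseudocount, no filter, a filter at the 60th percentile, the mean of probe sets, a fit to all 21 arrays, a trended robust fit and a block for the title mark (1687 to 2887). The mean of probe sets turned the balance of those calls, with 1462 higher and 1051 lower. It was 5135 with every probe set tested on its own, 3727 with array weights and 3247 on the arrays with the title mark. Among alternatives chosen after seeing the data it was 255 with conventional 1 and 6 as the only controls, 642 without the 3 conventional arrays with Y-linked signal, and 3291 with quantile normalization on the arrays with the title mark. Leaving out each array in turn gave 1193 (without Math1-GFP 6) to 2511 (without conventional 6), and 1229 without conventional 4. With the shared numbers as a replicate block, which keeps few degrees of freedom, 4 genes passed; same-numbered arrays correlated at 0.061, -0.025 and 0.024, so the numbers are not taken as a pairing. The cause of these shifts was not tested, beyond the fewer arrays or added features of each alternative. The interaction gave 0 genes under every alternative run. Among named genes, the mean of probe sets turned Sox11 (0.18), Son (0.28) and B4galt6 (0.14), and quantile normalization on the arrays with the title mark turned Rpsa (0.012). Of 101 named calls, 81 passed after quantile normalization, 22 against conventional 1 and 6 alone, 36 without the arrays with Y-linked signal, 1 with the replicate block, and 62 to 96 with 1 array left out. Of 858 list medians recomputed, 814 stayed within the spread between replicates. Under 15.53 in mean signal, genes were not tested.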

Other observations

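Where a gene had several probe sets, the others lay above the brightest in log2 difference at 67.6% of 6122 genes, by a median of 0.16. Of 1112 called genes with more than 1 probe set, 813 had all in the same direction and 71 had at least 1 that differed the opposite way at an unadjusted p under 0.05.

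The pattern with gene span was present at both levels of brightness. Among the dimmer genes the median log2 difference was -0.12 in the shortest and 0.02 in the longest 10% by span, and among the brighter genes -0.41 and 0.10. In CD15 positive cells the medians of the shortest and the longest 10% were -0.25 and 0.18. The 146 genes called in all 5 fits had a median span of 7.69 kb where lower and 40.2 kb where higher. The CreX-3' hybridisation control, which is added to the labelled RNA, had signals of 13290 to 29720 in conventional arrays and 5897 to 15100 in Math1-GFP arrays (2-sided exact permutation p = 0.0152, adjusted p = 0.0227).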
